A study of Homo sapiens with 11 samples.

Results

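The S100 calcium-binding protein genes of human pancreatic cancer cells were followed in liver tumours with and without knockdown of NPTX1. The 10 genes are S100A2, S100A3, S100A4, S100A6, S100A10, S100A11, S100A13, S100A14, S100A16 and S100P, found by gene symbol among the 23434 rows of the authors' deposited table, each in a row of its own and each with an adjusted p. The tumours came from PANC1 LM3, a derivative of the established pancreatic ductal carcinoma line PANC1 from generation 3 of liver metastasis. The shCTRL group expressed a control hairpin and has its genotype given as WT, while shNPTX1_3 and shNPTX1_4 each expressed a different short hairpin RNA against NPTX1, a secreted neuronal pentraxin. All groups therefore carry a hairpin and come from the same cell line, and the sources used here do not say whether each hairpin line was 1 clone. On day 1, 500000 cells were placed into the spleen, and liver tumours were taken on day 21, giving 4 shCTRL, 3 shNPTX1_3 and 4 shNPTX1_4 libraries. The host animal, its strain and age, and whether each library came from its own animal are not given either, so p-values measure only the spread between these libraries. In bulk tumour RNA, more cells of a type and more RNA per cell cannot be told apart.

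S100 proteins are small proteins with a pair of EF-hand motifs that mostly act as dimers. In most members, though not all, binding of calcium exposes a hydrophobic face through which the dimer holds a target, such as an annexin, non-muscle myosin or p53. Some members are also released from cells and bind the receptor RAGE, the product of AGER. Most S100 genes sit side by side on chromosome 1, close to genes of epidermal differentiation, and several are known as markers of ductal carcinoma in the pancreas.

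Libraries held an estimated 10822342 to 41191668 reads on genes. The estimate multiplies the size factor of a library, read from the steps of low group means, by the total normalized counts of its group. The targeted gene was lower with both hairpins: by the authors' deposited table NPTX1 averaged 103 normalized counts with the control hairpin, 46.5 with shNPTX1_3 and 38.4 with shNPTX1_4, so that it fell by 1.26 on the log2 scale with a standard error of 0.24 (DESeq2 adjusted p = 3.65e-06). The epithelial keratin genes KRT8 and KRT18 were abundant, with authors' control means of 8293 and 5877 normalized counts, while KRT7 stood at 11.1. The hepatocyte gene ALB stayed under 1 in every group of the authors' deposited table, and 5 of 11 hepatocyte markers stayed under 10. Others were higher, such as SERPINA1 at 28.9, 48.2 and 25.6 and APOA1 at 9.99, 49.3 and 21.9 in shCTRL, shNPTX1_3 and shNPTX1_4.

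The S100 genes that passed the test all rose. The authors' deposited table called 5 of the 10 genes higher in the knockdown tumours, S100A2, S100A3, S100A4, S100A6 and S100A16, and 0 lower, where 15.8% of all 18426 tested genes were called higher and 11.5% lower by DESeq2. The other 5, S100A10, S100A11, S100A13, S100A14 and S100P, did not pass the test. The median log2 fold change of the 10 was 1.02, beside -0.01 over all tested genes. Of the 8 whose mean reached 10 normalized counts, which leaves out S100A14 and S100P, the ratio of group means was 2-fold or more for 5 with shNPTX1_3, for 3 with shNPTX1_4 and for 2 (S100A3 and S100A4) with both, against 3.39%, 1.72% and 1.08% of the 16364 genes at that level.

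**Figure D1:**
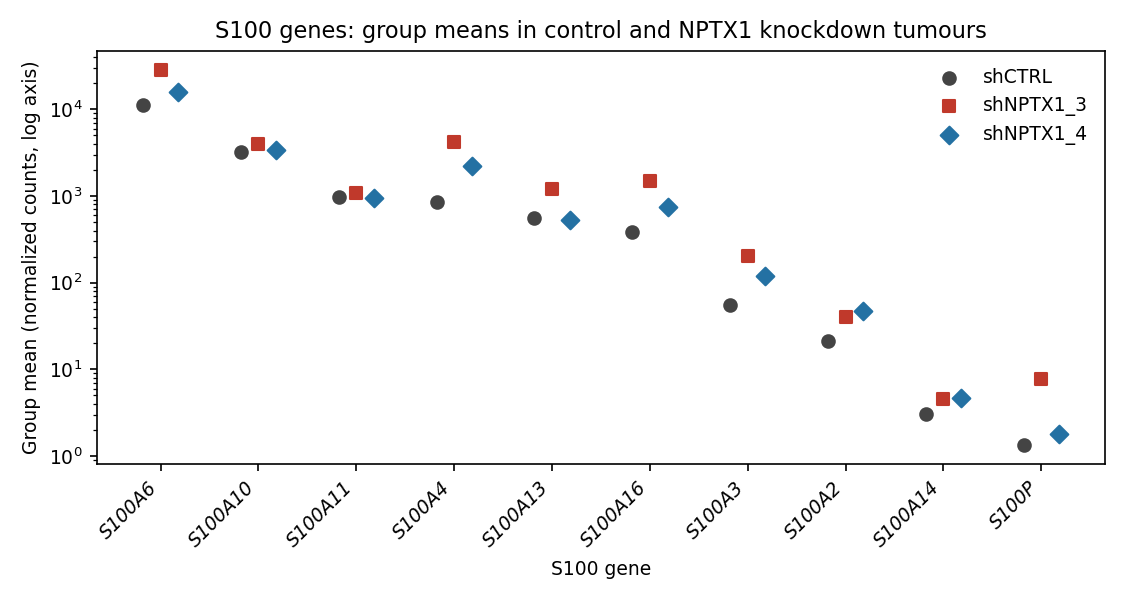
Authors' group means of the 10 S100 genes in normalized counts on a log axis, ordered by the control level; 1 point is the mean of 4 shCTRL, 3 shNPTX1_3 or 4 shNPTX1_4 libraries. The means span S100A6 at 11111 to S100P at 1.34 normalized counts in shCTRL. Of the 10 genes, 8 lie above control with both hairpins, all but S100A11 and S100A13.

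S100A4, known as a promoter of cell motility and metastasis that binds non-muscle myosin heavy chain, rose most among the called genes. The authors' deposited table gives it 857 normalized counts with the control hairpin, 4176 with shNPTX1_3 and 2222 with shNPTX1_4. That is 3.57-fold over both hairpins, with a 95% Wald interval of 2.60 to 4.89 (log2 fold change 1.84, standard error 0.23, DESeq2 adjusted p = 3.52e-13). Among 4114 called genes whose mean reached 100 normalized counts, only 39 changed by a larger factor in the authors' deposited table.

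S100A3, a gene best known from the hair cuticle, followed S100A4 at a much lower level. The authors' deposited table lists it at 55.0 normalized counts for shCTRL, 201 for shNPTX1_3 and 120 for shNPTX1_4, or 2.80-fold with an interval of 2.04 to 3.85 (log2 fold change 1.49, standard error 0.23, DESeq2 adjusted p = 1.01e-08). In shNPTX1_3 the reads of the 3 libraries could be solved, although only under the narrower of the tolerances tried, and gave 181, 186 and 235 normalized counts, all above 3 times the control mean. S100A3 and S100A4 overlap on the same strand in GENCODE 29, so how reads of shared stretches were assigned is uncertain for this pair.

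S100A16, a widely expressed member, stood in the authors' deposited table at 383 normalized counts for shCTRL, 1489 for shNPTX1_3 and 742 for shNPTX1_4. It rose 2.78-fold with an interval of 1.95 to 3.96 (log2 fold change 1.47, standard error 0.26, DESeq2 adjusted p = 5.3e-07). S100A6, or calcyclin, which binds annexins and the calcyclin-binding protein CACYBP, was the most abundant of the 10, with authors' means of 11111, 28841 and 15973 normalized counts. It rose 1.93-fold in the authors' deposited table, with an interval of 1.43 to 2.62 (standard error 0.22 on the log2 scale, DESeq2 adjusted p = 2.77e-04).

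S100A2, a nuclear member that binds p53 and is found in basal epithelial cells, was the only called gene with a higher mean in shNPTX1_4 than in shNPTX1_3. Its authors' means were 21.1, 39.9 and 47.3 normalized counts in the 3 groups, 2.12-fold in the authors' deposited table with an interval of 1.49 to 3.01 (standard error 0.26 on the log2 scale, DESeq2 adjusted p = 3.60e-04). Single libraries were solved for shCTRL, at 16.7, 19.0, 24.1 and 24.4 normalized counts, and for shNPTX1_3, at 34.0, 40.7 and 45.1. The means were 21.1 ± 3.82 (SD, n = 4) and 39.9 ± 5.60 (SD, n = 3), and every shNPTX1_3 library lay above every control library. Among 494 genes of 10 to 25 normalized counts in control that could be solved in both groups, 11.5% showed such a separation upwards. An exact two-sided permutation test gave p = 0.0571, the smallest that 3 against 4 libraries allow, and 0.193 after adjustment over the 27 such tests run. In shNPTX1_4 the mean of S100A2 was too high to be solved.

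**Figure D2:**
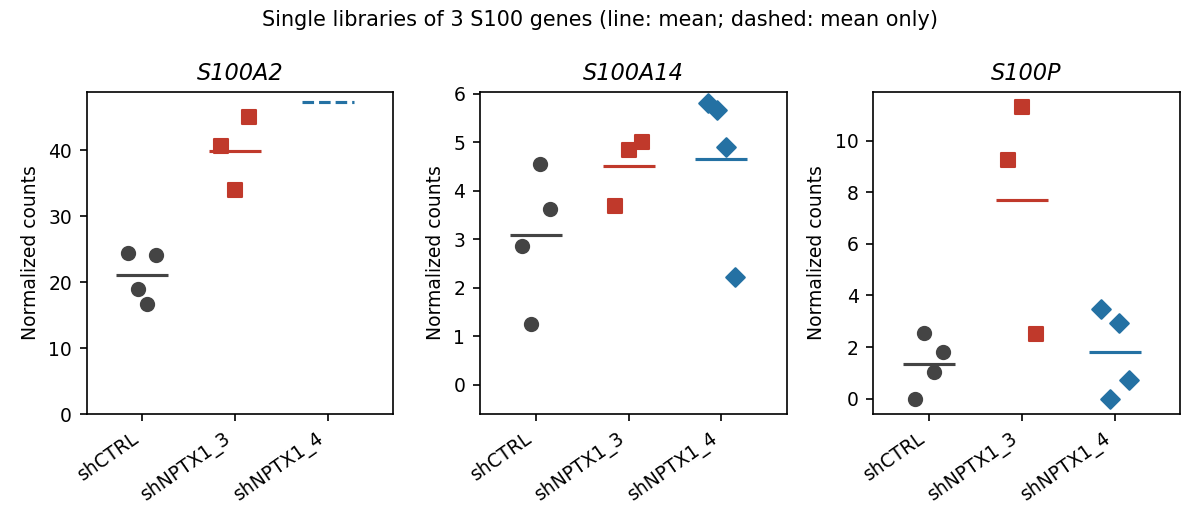
Normalized counts of S100A2, S100A14 and S100P in single libraries, solved from the group means; 1 point is 1 library, a solid line the group mean, and the dashed line the mean of S100A2 in shNPTX1_4, where libraries were not solved. The shNPTX1_3 libraries of S100A2 (34.0 to 45.1) lie above all control libraries (16.7 to 24.4), while the groups overlap for S100A14 and for S100P.

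S100A10 and S100A11, the partners of annexins A2 and A1, were not called. S100A10 had authors' means of 3186, 4012 and 3355 normalized counts, and the authors' deposited table gives a log2 fold change of 0.19 with an interval of -0.03 to 0.41 (DESeq2 adjusted p = 0.194). S100A11 had authors' means of 966, 1082 and 955 normalized counts, and the authors' deposited table gives a log2 fold change of 0.07 with an interval of -0.22 to 0.35 (DESeq2 adjusted p = 0.774). The upper ends of these intervals are changes of 1.33-fold and 1.28-fold, below the lower ends for S100A4, S100A3, S100A16, S100A6 and S100A2.

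S100A13, which takes part in the release of FGF1 and interleukin 1 alpha, had its highest mean with shNPTX1_3. Its authors' means were 556 normalized counts for shCTRL, 1207 for shNPTX1_3 and 529 for shNPTX1_4, and over both hairpins the authors' deposited table did not call it (log2 fold change 0.56, standard error 0.35, DESeq2 adjusted p = 0.232). S100A1, which lies across S100A13 on the other strand, had its highest mean in the same group by the authors' deposited table, at 32.5, 73.6 and 29.95 normalized counts, and was not called either (DESeq2 adjusted p = 0.267). Without a known strand setting, reads of these overlapping genes cannot be told apart.

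S100A14, an epithelial member, and S100P, a calcium-binding protein widely used as a marker of pancreatic ductal carcinoma, were hardly expressed. S100A14 had 1 to 9 reads in a library: the solved values ran from 1.27 to 4.55 normalized counts in the controls, from 3.70 to 5.01 in shNPTX1_3 and from 2.22 to 5.81 in shNPTX1_4, and the groups overlapped. S100P had 0, 1.01, 1.82 and 2.53 normalized counts in the control libraries, 2.50, 9.24 and 11.3 in those of shNPTX1_3, and 0, 0.740, 2.94 and 3.49 in those of shNPTX1_4. These rest on 8, 15 and 7 reads in all, and 1 of the 3 shNPTX1_3 libraries lay among the controls. The exact two-sided permutation test of all 7 knockdown libraries against the 4 controls gave p = 0.255 for S100P and 0.121 for S100A14, where 0.00606 is the smallest possible, and adjusted values of 0.408 and 0.273. DESeq2 adjusted p-values were 0.228 and 0.618 in the authors' deposited table, with intervals of the log2 fold change from -0.34 to 3.40 for S100P and from -0.73 to 1.62 for S100A14, so sizeable changes of either could not be detected at this depth.

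**Figure D3:**
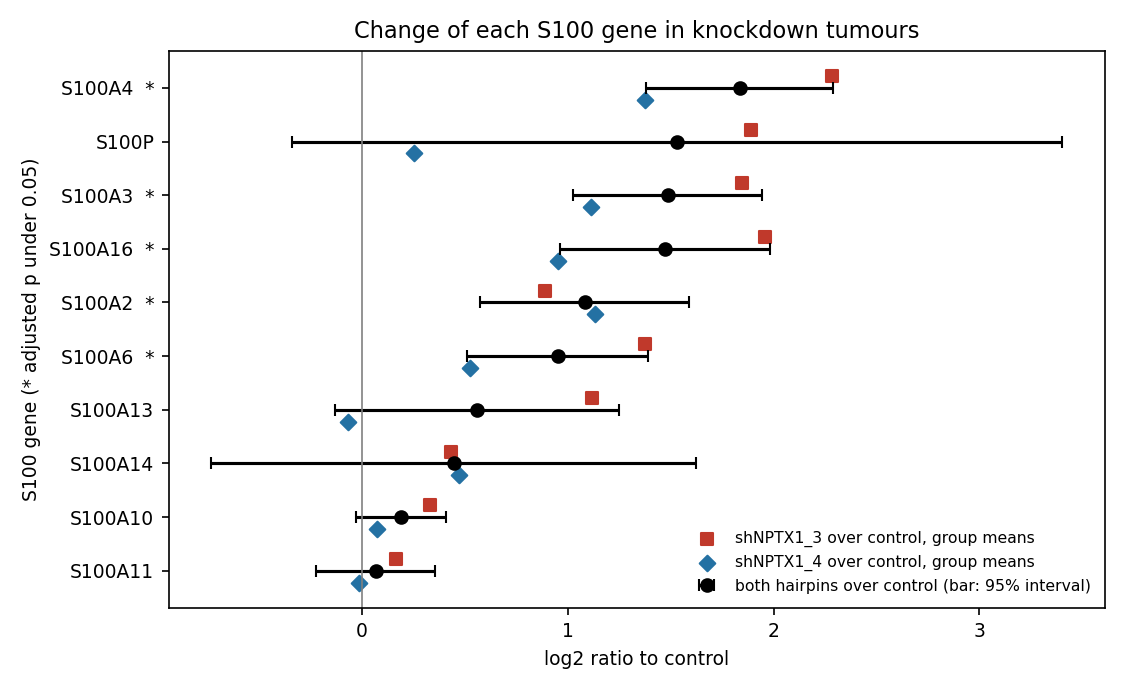
log2 ratio to control of the 10 S100 genes; circles with bars are the deposited log2 fold change of both hairpins with its 95% Wald interval, squares and diamonds the log2 ratios of the group means (pseudocount 1) for shNPTX1_3 and shNPTX1_4, and asterisks mark an adjusted p under 0.05. The bars of the 5 called genes lie above 0, and the shNPTX1_3 squares lie to the right of the shNPTX1_4 diamonds for all genes but S100A2 and S100A14.

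Taken hairpin by hairpin against the same 4 control libraries, shNPTX1_3 tumours held the higher mean for 8 of the 10 genes, S100A2 and S100A14 being the exceptions. For S100A4 the log2 ratio of group means was 2.28 with shNPTX1_3 (rebuilt standard error 0.28) and 1.37 with shNPTX1_4 (0.26). For S100A16 the ratios were 1.96 and 0.95, for S100A3 1.85 and 1.11, and for S100A6 1.38 and 0.52. By the approximate z from rebuilt errors, 7 of 8 genes with enough counts passed with shNPTX1_3, where 17.1% of genes were called higher, and 4 of 8 passed with shNPTX1_4, where 12.3% were. The genes past the threshold with shNPTX1_3 but not with shNPTX1_4 were S100A6, S100A10 and S100A13, with adjusted values of 0.127, 0.718 and 0.921 in shNPTX1_4.

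The hairpins themselves were then compared. S100A13 differed most among the 8 genes, by -1.19 on the log2 scale in shNPTX1_4 relative to shNPTX1_3 (rebuilt standard error 0.43), followed by S100A16 at -1.004 (0.32), S100A4 at -0.91 (0.28), S100A6 at -0.85 (0.27) and S100A3 at -0.73 (0.27). None passed after adjustment over all 16364 genes, with approximate adjusted p-values of 0.0907, 0.0849, 0.0849, 0.0849 and 0.0996, and 0 genes of the whole set passed (0% of genes tested). At an unadjusted p under 0.05, 5 of the 8 S100 genes and 3598 of all genes differed. The approximate 95% interval of the difference ran from -1.46 to -0.36 for S100A4. The dispersion behind these errors comes from a fit that pooled both hairpins, so a difference between them widens the error it is tested with and works against a call, and the count of 0 says little about whether the hairpins differed.

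Among markers of other cell types and of the tumour epithelium, the keratins and some fibroblast genes differed between the groups. KRT7, KRT8, KRT18 and KRT19 were called higher, 4 of the 6 epithelial markers, where 15.8% of all tested genes were called higher and 11.5% lower. The 6 summed in the authors' deposited table to 16162 normalized counts for shCTRL, 56791 for shNPTX1_3 and 29042 for shNPTX1_4. By the authors' deposited table KRT19, a keratin of ductal cells, rose by 2.30 on the log2 scale, while EPCAM and CDH1 were not called (DESeq2 adjusted p = 0.665 and 0.275). The 8 markers of fibroblasts and stellate cells, cells that also use S100A4, summed to 2898, 7293 and 3765 normalized counts. Among them COL3A1 rose by 2.32 and LUM by 1.16, THY1 fell by 1.06, and COL1A1, COL1A2, DCN, PDGFRB and ACTA2 were not called in the authors' deposited table. Summed means of the 12 leukocyte markers were 922, 1017 and 815 normalized counts, with 0 of the 8 tested ones called. TYROBP and CD3E were at 0 in 2 groups each, and ELANE and MPO at 0 in 1 group each. The 6 endothelial markers summed to 427, 464 and 421, with 0 of the 5 tested ones called, and the 11 hepatocyte markers to 110, 212 and 114. Of the 7 hepatocyte markers tested, APOA1 and TF were called higher. APOA2 was at 0 in shCTRL and TTR at 0 in shNPTX1_3. The injected cells were of a human line, and the host and any removal of its reads are not given. Whether these marker counts come from host cells or from the tumour cells themselves therefore cannot be told, and they do not measure cell content. The part of the epithelial, fibroblast and hepatocyte markers in the S100 changes was not tested.

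Corrected for transcript length, the order of levels in control tumours ran S100A6, S100A10, S100A11, S100A4, S100A13, S100A16, S100A3, S100A2, S100A14, S100P, from 16510 down to 1.05 normalized counts per kilobase. With both hairpins S100A4 moved up from rank 4 to rank 2, to 7333 normalized counts per kilobase in shNPTX1_3 and 3902 in shNPTX1_4, past S100A10 at 4413 and 3691. In control tumours S100A11 and S100A4 stood next to each other at 1626 and 1505, and in shNPTX1_4 so did S100A4 and S100A10, and neighbours this close were not tested against each other. The 10 genes together took 0.0915% of all normalized counts with the control hairpin, 0.205% with shNPTX1_3 and 0.124% with shNPTX1_4, and S100A6 alone made up 64.8%, 70.2% and 66.7% of those sums.

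The genes that rose are neighbours. In chromosome 1 order the stretch from S100A6 to S100A1 holds S100A6, S100A5, S100A4, S100A3, S100A2, S100A16, S100A14, S100A13 and S100A1, of which 5 were called higher and 0 lower in the authors' deposited table, with a median log2 fold change of 1.03. Over all tested genes 15.8% were called higher and 11.5% lower. The 5 calls are those already given, since all genes of the stretch but S100A5 and S100A1 belong to the group described here. S100A10 and S100A11 lie apart from it, on the far side of the filaggrin genes. Between S100A11 and S100A6 the genes FLG and HRNR, large proteins of the cornified skin layer with an S100 domain at one end, fell by 0.59 and 0.66 in the authors' deposited comparison table (DESeq2 adjusted p = 0.0429 and 0.00308). Of the 10 protein-coding genes that follow S100A1, 3 were called higher and 2 lower in the authors' deposited table, with a median of 0.05, beside the same 15.8% and 11.5% of all tested genes. By the authors' deposited table the gene next to S100A1, CHTOP, stood at a log2 fold change of 0.06 (standard error 0.08), and SNAPIN, the next, rose by 0.51. S100P, on chromosome 4, has MRFAP1L1 beside it, which rose by 0.31 in the authors' deposited table.

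**Figure D4:**
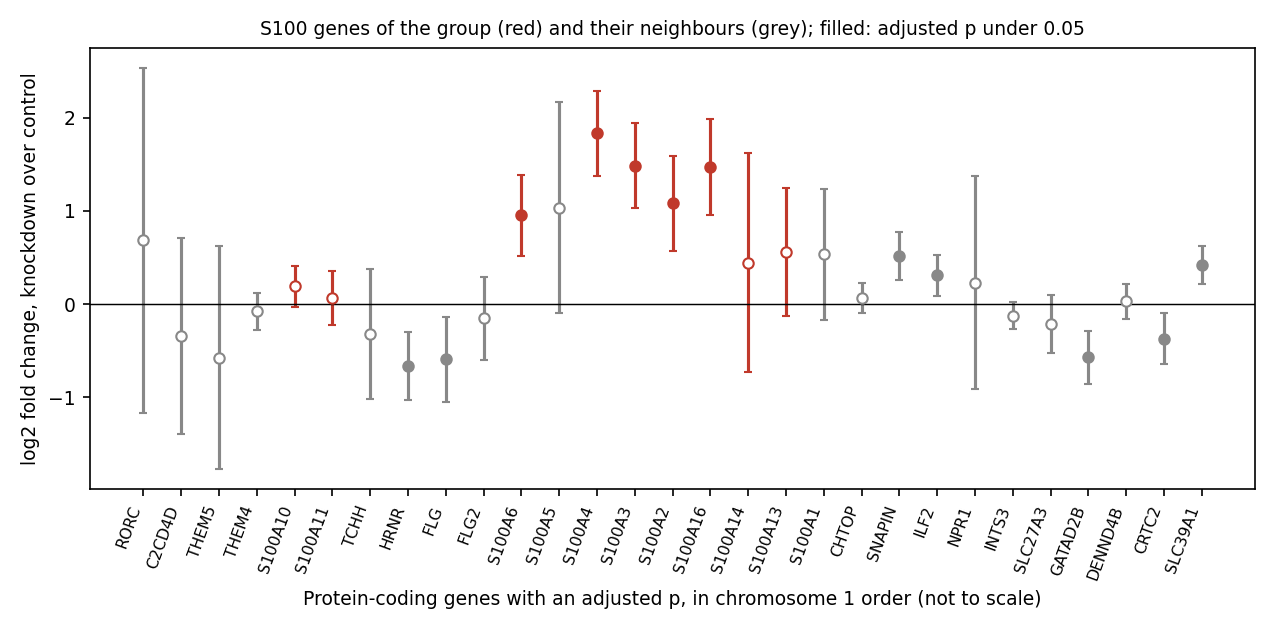
log2 fold change, knockdown over control, of protein-coding genes with an adjusted p around the S100 genes of chromosome 1, in gene order and not to scale; bars are 95% Wald intervals, red marks the S100 genes described here, and filled points have an adjusted p under 0.05. The filled red points, S100A6, S100A4, S100A3, S100A2 and S100A16, sit together between log2 fold changes of 0.95 and 1.84, while S100A10 and S100A11 sit near 0.

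The sequences before every RefSeq start of the 5 called genes, which are neighbours, and of S100A10, which was not called, are shown so that they can be compared. RefSeq gave 14 start sites for the 10 genes, and each window below holds the 250 bases before a start on the GRCh38.p14 build, read 5′ to 3′ on the minus strand of chromosome 1. Capitals mark a TATA box (TATAAA), an AP-1 motif (TGANTCA) or a GC box (GGGCGG), searched on both strands.
S100A4, chr1:153545807-153546056: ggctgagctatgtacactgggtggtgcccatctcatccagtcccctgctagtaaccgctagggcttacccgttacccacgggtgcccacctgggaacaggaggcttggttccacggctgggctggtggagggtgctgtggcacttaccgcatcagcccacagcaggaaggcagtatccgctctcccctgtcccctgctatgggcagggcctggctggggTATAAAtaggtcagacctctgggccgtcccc
S100A3, chr1:153549259-153549508: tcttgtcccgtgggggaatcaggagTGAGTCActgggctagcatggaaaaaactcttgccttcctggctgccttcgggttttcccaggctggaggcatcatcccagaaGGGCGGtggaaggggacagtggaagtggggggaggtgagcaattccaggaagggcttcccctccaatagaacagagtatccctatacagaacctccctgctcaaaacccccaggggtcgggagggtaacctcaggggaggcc
S100A2, first window, chr1:153563888-153564137: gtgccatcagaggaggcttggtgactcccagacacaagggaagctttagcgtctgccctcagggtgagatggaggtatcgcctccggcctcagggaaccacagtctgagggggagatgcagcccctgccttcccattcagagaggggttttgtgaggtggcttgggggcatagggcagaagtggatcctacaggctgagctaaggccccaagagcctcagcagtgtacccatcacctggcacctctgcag
S100A2, second window, chr1:153565845-153566094: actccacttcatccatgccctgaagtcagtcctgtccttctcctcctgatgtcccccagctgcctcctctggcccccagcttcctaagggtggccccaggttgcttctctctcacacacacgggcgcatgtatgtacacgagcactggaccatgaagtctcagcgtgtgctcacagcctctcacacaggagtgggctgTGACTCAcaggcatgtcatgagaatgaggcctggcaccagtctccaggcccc
S100A16, first window, chr1:153609356-153609605: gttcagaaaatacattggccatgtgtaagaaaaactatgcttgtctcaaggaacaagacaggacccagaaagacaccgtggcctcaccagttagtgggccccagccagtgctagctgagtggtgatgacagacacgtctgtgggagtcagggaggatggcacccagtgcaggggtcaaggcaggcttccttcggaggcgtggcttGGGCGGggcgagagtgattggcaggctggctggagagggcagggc
S100A16, second window, chr1:153613138-153613387: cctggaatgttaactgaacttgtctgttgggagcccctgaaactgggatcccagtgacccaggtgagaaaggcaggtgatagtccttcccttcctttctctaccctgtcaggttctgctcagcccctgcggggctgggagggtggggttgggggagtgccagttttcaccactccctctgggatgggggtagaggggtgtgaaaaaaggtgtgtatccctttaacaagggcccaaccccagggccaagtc
S100A6, chr1:153535992-153536241: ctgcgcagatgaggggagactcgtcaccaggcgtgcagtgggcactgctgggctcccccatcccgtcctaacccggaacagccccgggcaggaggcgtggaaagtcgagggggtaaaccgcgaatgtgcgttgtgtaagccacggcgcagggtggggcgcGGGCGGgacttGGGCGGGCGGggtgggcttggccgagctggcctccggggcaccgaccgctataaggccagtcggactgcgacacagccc
S100A10, chr1:151993860-151994109: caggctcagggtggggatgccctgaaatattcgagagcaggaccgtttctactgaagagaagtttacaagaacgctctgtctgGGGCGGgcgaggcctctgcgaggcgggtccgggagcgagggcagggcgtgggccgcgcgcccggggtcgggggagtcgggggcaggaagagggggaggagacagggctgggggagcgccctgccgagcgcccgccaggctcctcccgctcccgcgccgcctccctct

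No motif was found in all of these windows. S100A4 held TATAAA at position -31, counted back from the start, and S100A2 (second window) and S100A3 held TGANTCA at -52 and -225. GGGCGG was found in S100A3 at -142, in S100A16 (first window) at -45, in S100A10 at -167 and in S100A6 at -90, -79 and -75, of which the matches at -79 and -75 overlap. The first window of S100A2 held none of the motifs searched. Over all 34788 windows of this length TATAAA was found in 10.8%, TGANTCA in 6.59%, GGGCGG in 42.6%, CCAAT in 32.0%, CATTCC in 11.9% and CACGTG in 6.31%. Of the 14 windows of the 10 S100 genes, 3 held TATAAA (S100A4, S100A13 and S100P), 2 TGANTCA, 6 GGGCGG, 3 CCAAT, 1 CATTCC and 0 CACGTG. A match describes the letters of the window and is not evidence of a binding site.

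Other S100 genes were mostly low, and 0 of the 4 tested ones were called. Over all tested genes 15.8% were called higher and 11.5% lower. The 11 others had rows, and 4 of them had an adjusted p: S100A1, S100A5, S100B and S100G, which the authors' deposited table gives as 0.267, 0.175, 0.187 and 0.236 by DESeq2. By the approximate z, S100A1 passed with shNPTX1_3 (log2 ratio 1.15, adjusted p = 0.0296), where 17.1% of genes were called higher. It did not pass with shNPTX1_4 (log2 ratio -0.11, adjusted p = 0.872). S100A5, which lies between S100A6 and S100A4, had 2.87 to 6.07 normalized counts in the solved control libraries, 9.24 to 19.4 in shNPTX1_3 and 2.94 to 9.08 in shNPTX1_4. Its shNPTX1_3 libraries lay above all control libraries (exact two-sided permutation p = 0.0571, the smallest possible, 0.193 adjusted). How many genes at so low a level separate in this way was not counted, so the separation is only described. S100B, a glial member on another chromosome, had 17.7 to 28.7 normalized counts in control libraries, 7.39 to 13.4 in shNPTX1_3 and 13.6 to 20.6 in shNPTX1_4. Its shNPTX1_3 libraries lay below all control libraries (exact two-sided permutation p = 0.0571, the smallest possible, 0.193 adjusted). The shNPTX1_4 libraries at 18.5 and 20.6 normalized counts lay within the control range, and those at 13.6 and 17.4 lay below it. The exact permutation test of all 7 knockdown libraries against the controls gave p = 0.0182, 0.193 adjusted. The share of genes that separate downwards was not counted. S100A8 and S100A12, genes of neutrophils, were at 0 in all 11 libraries, which allows up to 3 of an estimated 232649908 reads, for counting error only. S100A9, S100A7, S100A7A, S100A7L2, S100Z and S100G stayed under 4 normalized counts in every group mean.

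Some surface partners of S100 proteins rose and others fell. The authors' deposited table called 3 of 11 tested genes higher and 3 lower, with a median log2 fold change of 0.01, where 15.8% and 11.5% of all tested genes were called. AGER, which encodes RAGE, fell by 0.66 on the log2 scale, from 114 to 69.3 and 76.7 normalized counts by the authors' deposited table, with a standard error of 0.18 (DESeq2 adjusted p = 0.00183). TLR4, an innate immune receptor that binds S100A8 and S100A9, rose by 2.10, from 16.01 to 75.6 and 65.2 normalized counts, and the syndecan SDC4 by 1.30, as the authors' deposited table gives them. The growth factor receptor EGFR rose by 0.56, while FGFR1 fell by 0.72 and the adhesion molecule ALCAM by 0.39 in the authors' deposited table.

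Of the intracellular partners, annexins, tropomyosin and ezrin genes were among those that rose. The authors' deposited table called 10 of 33 tested genes higher and 2 lower, with a median log2 fold change of 0.12, beside the same 15.8% and 11.5% of all tested genes. When all groups were set to equal totals, 6 and 4 were called, where 11.6% of all tested genes were called higher and 16.4% lower. ANXA1, the annexin that S100A11 binds, had authors' means of 2854, 7902 and 3627 normalized counts and by the authors' deposited table rose by 0.94 (standard error 0.33, DESeq2 adjusted p = 0.0203). ANXA2, the annexin that S100A10 binds, had authors' means of 33783, 49004 and 40189 and rose by 0.38, a call lost under equal totals (adjusted p = 0.0727). The tropomyosin TPM1 rose by 0.85, ANXA5 by 0.53, the membrane linker EZR, a target of S100P, by 0.49, FKBP4 by 0.48 and CACYBP, the partner of S100A6, by 0.41 in the authors' deposited table. PLA2G4A, a phospholipase held by S100A10 and listed at 1.80, 7.29 and 4.37 normalized counts, rose by 1.84 and lost its call under equal totals, as did LMNA, which rose by 0.42. AHNAK, a scaffold of the S100A10 and annexin A2 complex, and S100PBP, which binds S100P, were not called by the authors' deposited table, where their log2 fold changes are -0.20 and -0.05, and AHNAK was called lower under equal totals.

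The genes whose pair of log2 ratios was closest to that of S100A4, among 11977 genes whose mean reached 100 normalized counts, were CSF1, LONRF3, GFPT2, ADIRF and MGP. Their Euclidean distances over the 2 ratios were 0.07, 0.11, 0.11, 0.16 and 0.18. Closest to S100P, with its few reads, were SYT12, ELL2, LAMA4, ITGB2 and CASP4, at distances from 0.04 to 0.22. With only 3 group means behind each pattern, likeness of this kind is a description.

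All 5 calls were also made under equal totals, a scaling that lowers each log2 fold change by 0.07, although over all genes the share of calls that were higher went from 57.9% to 41.4% under that scaling. Tested against a change of more than 1.5-fold, S100A3 and S100A4 alone of the 10 remained called, where 143 of 18426 tested genes were called higher.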

How the data were processed

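RNA-seq values of 11 liver tumour libraries were used as deposited. Tools named by the submitters' processing notes, with no role given, are DESeq2 1.24, featureCounts 2.0.0, STAR 2.7.6a and MultiQC 1.9, with hg19 and mm39 as builds. The sources used here do not give the strand setting or any removal of mouse reads. The authors' deposited table holds 3 group means, which are a signal: counts divided by size factors and averaged over a group. Per the file headers it also holds, in DESeq2's column names, a log2 fold change of the 7 knockdown libraries over the 4 controls with its standard error, a Wald score, a p-value and its adjusted value.

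Of 23434 rows, 107 without a usable gene name were left out, and 18426 named genes had an adjusted p. The call threshold was a deposited adjusted p below 0.05. A count test such as edgeR could not be run on group means, and single libraries were tested only for the low genes solved below. Ratios of group means used a pseudocount of 1. Their standard errors were rebuilt from the negative binomial dispersion that gives the deposited standard error, for the 16364 genes whose mean reached 10 normalized counts, and p-values of the approximate z were adjusted by the Benjamini-Hochberg method over those genes. That minimum was set after the table had been seen, and S100A2 has hairpin tests because of it. The dispersion already contains the difference between the hairpins, which the deposited fit took as 1 group, and this works against calling that difference. Alternatives moved by less than the deposited standard error for S100A14 and S100P, which have no rebuilt one, were counted as unmoved.

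For low genes, the reads of each library were solved from the 10 significant digits of the group mean and kept where exactly 1 combination of whole reads matched and fewer than 0.05 matches were to be had by chance. This step, its tolerance and that limit were chosen after seeing the data. A wider tolerance was tried first, under which S100A3 in shNPTX1_3 has 0.0589 chance matches and would not be kept, against 0.0281 under the tolerance used. The reads of S100A2 in shNPTX1_4, of S100A3 in the other groups and of NPTX1 in shCTRL and shNPTX1_4 were not solved, and S100A1 matched no whole reads where tried. Between 5 and 8 normalized counts, 53.9%, 58.8% and 54.1% of rows gave 1 combination in shCTRL, shNPTX1_3 and shNPTX1_4. The other 46.1%, 41.2% and 45.9% matched no combination of whole reads, so the premise of the step did not hold for those rows. Which replicate a solved library is remains unknown. The read solver and the ratio test were run on simulated data, which took the dispersion as known and so did not test the effect of pooling the hairpins.

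The 10 genes, the related lists and the markers were chosen with earlier results of these data known. Named genes were all 10, NPTX1, every other S100 gene, up to 8 called genes per related list by size of change, set partners of S100 proteins, the 5 genes most like S100A4 and S100P, and genome neighbours. Transcript lengths are medians over coding transcripts of the GENCODE 29 basic set and promoters are from RefSeq, both on GRCh38. The 6 motifs were first searched in windows that ran past the start, and the windows were then shortened to the 250 bases before it. Python 3.11.15, pandas 2.3.3 and scipy 1.17.1 were used.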

Additional observations from a re-analysis of the deposited data

How the results depend on the processing

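Against a change of more than 1.5-fold, 2 of the 10 S100 genes were called higher in place of 5, because the bar is higher. Of all 18426 tested genes, 143 were called higher in place of 2913. With shNPTX1_4 alone the small differences of S100A11 and S100A13 turned to -0.016 and -0.070 on the log2 scale, neither past the threshold, and S100A6 lost its approximate call at 0.52. With equal totals the intracellular partners had 6 genes called higher and 4 lower, where 11.6% of all tested genes were called higher and 16.4% lower. At an adjusted p under 0.01 these partners had 5 called higher, where 1899 of 18426 tested genes were. The S100-fused genes had 1 called lower at that threshold, for which no share over all genes is given. The 5 called S100 genes were also the called genes with equal totals, at an adjusted p under 0.01 and with adjustment over every gene with a p. Called higher in those settings were 2132 of 18426, 1899 of 18426 and 2793 of 21794 genes. With adjustment over genes of at least 100 normalized counts, 4 of the 5 were called, which leaves S100A2 out, where 2742 of 11976 genes were called higher. S100A3 met that minimum through its knockdown means of 201 in shNPTX1_3 and 120 in shNPTX1_4, beside 55.0 in shCTRL. The log2 ratio of S100P in shNPTX1_3 was 0.64 with a pseudocount of 10. No paired analysis was possible because the deposited table holds group means and no replicate numbers, and leaving out single replicates was not run for the same reason.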

Other observations

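Among other calcium sensors with EF hands, relatives outside the S100 family, the authors' deposited table called 10 of 22 tested genes higher and 2 lower, with a median log2 fold change of 0.26, where 15.8% of all tested genes were called higher and 11.5% lower. By the authors' deposited table the visinin-like sensor NCALD rose by 1.73, from 21.3 to 93.4 and 56.0 normalized counts, the centrin CETN2 by 1.02 and HPCAL1 by 0.78. RCN2 and CALU, both of the secretory pathway, and calmodulin 2 (CALM2) rose by 0.49, 0.45 and 0.45, and EFHD1 fell by 0.93 and GCA by 0.54 in the authors' deposited table. Under equal totals PDCD6 and CAPN1 were no longer called.

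Of the 7 S100-fused genes, 4 had an adjusted p. By the authors' deposited table HRNR and FLG fell, while FLG2 and TCHH were not called (DESeq2 adjusted p = 0.658 and 0.537). FLG had authors' means of 144 normalized counts for shCTRL, 62.5 for shNPTX1_3 and 120 for shNPTX1_4, and HRNR had 130, 66.2 and 95.2.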
